A study of Mus musculus with 3 samples.

Results

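The 39 genes described here code for proteins of the cell cycle and of DNA replication. They were listed by symbol, and all 39 were found among the 32285 features counted. By their known roles they were divided into a mitosis set of 24 genes, a replication set of 10 genes that act in S phase, a DNA repair set of 4 genes, and Ccnd1, the D-type cyclin of G1. Single-nucleus RNA sequencing of frozen mouse liver gave 3 libraries, 1 for each group, from male C57BL/6N mice aged 8 weeks at the start. The Aza-TdC library came from mice that ate, for 18 weeks, a diet made to bring on metabolic dysfunction-associated steatotic liver disease (MASLD) and drank sugar water with 23.1 g/L fructose and 18.9 g/L glucose. Between week 14 and week 18 these mice also received Aza-TdC, the nucleoside analogue 5-Aza-4′-thio-2′-deoxycytidine, in a daily oral dose of 2 mg/kg. The MASLD library had the same food and drink without the compound, and the SD library a standard diet. How many animals stand behind a library was not stated. With 1 library per group there is no replicate check, so the values below compare libraries, no p-value is given, and every interval covers counting error only.

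A dividing cell commits itself in G1 through D-type cyclins, copies its DNA in S phase and separates the copies in mitosis. MCM proteins open the origins, DNA polymerase alpha starts the new strands, PCNA clamps the polymerases, and ribonucleotide reductase supplies the nucleotides; later, B-type cyclins with Cdk1, condensed chromosomes, kinetochores and spindle motors drive mitosis. Adult hepatocytes are mostly quiescent and often polyploid, while Kupffer cells, the resident macrophages of liver, can renew themselves by division. Aza-TdC belongs to a class of cytidine analogues that are built into DNA during S phase and deplete the maintenance methyltransferase DNMT1.

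Transcription of these genes is timed through short promoter elements. The cell cycle genes homology region (CHR) is bound by MuvB complexes, the CCAAT box by NF-Y and E2F elements by E2F factors. RefSeq windows of build GRCm38.p6 were matched for 35 of the 39 members; Ccna2, Mcm4, Rad54b and Ccnd1 were not matched. The 120 bases before the annotated start are shown for 7 members described below: Mki67, Top2a and Cdk1 from mitosis, Ccnb2 and Rrm2 because they ran against their sets in hepatocyte-like nuclei, and Mcm6 and Dtl as replication members with E2F letters. Capitals mark the letters TTTGAA or TTCGAA (CHR), CCAAT, and TTTCCCGC, TTTCGCGC, TTTGCCGC or TTTGGCGC (E2F), each on either strand.
Mki67 (chr7:135716380-135716499, minus strand): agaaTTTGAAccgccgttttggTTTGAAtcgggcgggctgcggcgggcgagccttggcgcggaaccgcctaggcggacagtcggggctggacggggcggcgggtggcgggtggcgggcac
Top2a (chr11:99024190-99024309, minus strand): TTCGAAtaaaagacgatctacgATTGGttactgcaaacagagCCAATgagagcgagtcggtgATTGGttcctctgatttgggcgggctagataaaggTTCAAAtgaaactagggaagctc
Cdk1 (chr10:69352913-69353032, minus strand): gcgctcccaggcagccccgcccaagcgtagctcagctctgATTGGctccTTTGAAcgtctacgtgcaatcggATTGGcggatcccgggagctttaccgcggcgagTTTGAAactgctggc
Ccnb2 (chr9:70421555-70421674, minus strand): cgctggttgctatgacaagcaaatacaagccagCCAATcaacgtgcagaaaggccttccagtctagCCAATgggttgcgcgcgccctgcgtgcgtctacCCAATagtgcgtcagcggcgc
Rrm2 (chr12:24708134-24708253, plus strand): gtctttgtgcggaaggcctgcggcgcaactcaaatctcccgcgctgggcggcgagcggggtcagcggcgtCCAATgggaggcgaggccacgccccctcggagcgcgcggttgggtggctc
Mcm6 (chr1:128359706-128359825, minus strand): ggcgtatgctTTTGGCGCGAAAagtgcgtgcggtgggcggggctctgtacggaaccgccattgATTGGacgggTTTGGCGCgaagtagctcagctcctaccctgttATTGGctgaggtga
Dtl (chr1:191575545-191575664, minus strand): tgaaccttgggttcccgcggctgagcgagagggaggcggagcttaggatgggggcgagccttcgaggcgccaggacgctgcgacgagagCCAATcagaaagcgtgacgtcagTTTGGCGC

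Over the 250 bases before the start, the CHR letters were present in 10 of 23 mitosis members (43.5%), against 1 of 9 replication members and 19.6% of the 27025 genes with a window. CCAAT was present in 17 of 23 mitosis members (73.9%) and in 9 of 9 replication members, against 37.5% of all genes. An E2F match was present in 2 of 23 mitosis members and in 4 of 9 replication members (44.4%), against 2.16% of all genes. Top2a carried 3 CCAAT matches, at 98, 78 and 58 bases before the start, and Ccnb2 carried 3, at 87, 54 and 21 bases. Letters shared by overlapping motifs were counted for each. These matches describe the letters in the window and not sites in use.

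Depth was 51789068 UMIs over 7598 barcodes in Aza-TdC, 43569644 UMIs over 6928 barcodes in MASLD and 45162618 UMIs over 7139 barcodes in SD. The smallest barcode held 500 UMIs in Aza-TdC, 500 in MASLD and 1546 in SD. Barcodes shared between libraries numbered 15 for Aza-TdC and MASLD, 9 for Aza-TdC and SD, and 11 for MASLD and SD. Clusters were named from marker genes, without the 39 members among the genes used for clustering. Hepatocyte-like nuclei numbered 6811 in Aza-TdC, 5979 in MASLD and 6857 in SD. Macrophage-like nuclei numbered 333, 244 and 33 in the same order, and endothelial-like nuclei 180, 180 and 115. The macrophage-like cluster was led by Clec4f, Adgre1, Cd5l and Cd163, with Clec4f and Cd5l being Kupffer cell genes, and the endothelial-like cluster by Ptprb, Adgrl4, Stab2 and Flt1. Nuclei had been stained with the DNA dye DAPI and sorted, per the series' design text. The gates were not stated; a gate can set the share of nuclei with more DNA, and its part in the shares below was not tested.

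In macrophage-like nuclei the mitosis genes stood far lower in the Aza-TdC library than in the MASLD library. Their summed level was 268 CPM in Aza-TdC, 2798 CPM in MASLD and 2189 CPM in SD, from 317, 2038 and 214 UMIs; CPM are counts of UMIs scaled to the same total over all genes in the nuclei of that class and library. The log2 ratio of Aza-TdC over MASLD was -3.38 (95% interval -3.56 to -3.21), a level 0.0959 times that in MASLD. The ratio of MASLD over SD was 0.35 (0.15 to 0.56); of the 9 SD nuclei that carry its SD side, 7 held 2 or more dendritic markers. The MASLD library is part of both comparisons.

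**Figure D1:**
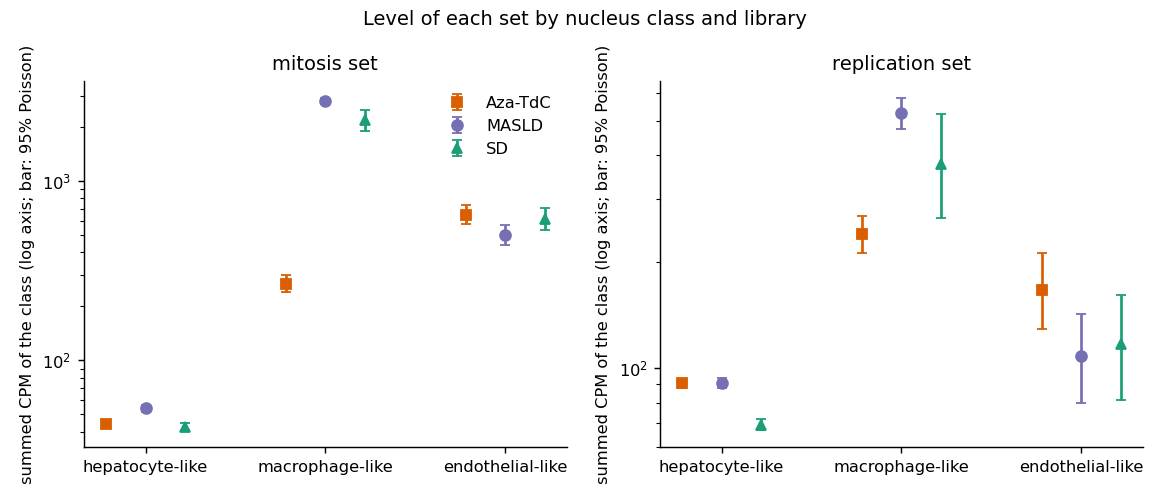
Summed level of the mitosis set (left) and the replication set (right) in CPM on a log axis, for hepatocyte-like, macrophage-like and endothelial-like nuclei of the Aza-TdC, MASLD and SD libraries, with exact Poisson 95% intervals. In macrophage-like nuclei the mitosis set lies at 268 CPM in Aza-TdC, below 2798 CPM in MASLD and 2189 CPM in SD.

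A gene was taken as measured in a comparison when it had at least 20 UMIs over the libraries compared, and as at least 2-fold different when its log2 ratio was 1 or more, or -1 or less, with an interval that excluded 0. In macrophage-like nuclei, Aza-TdC over MASLD, 30 of 33 measured members were at least 2-fold lower and 0 were at least 2-fold higher. Over all 9952 genes measured there, 8.82% were lower by that rule and 4.61% higher. The median log2 ratio was -3.30 over the members and -0.05 over all genes. All 22 measured mitosis members and all 4 repair members were among the lower ones, as were 4 of 6 measured replication members.

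Mki67, the proliferation marker that coats mitotic chromosomes, had 27 UMIs in Aza-TdC, 183 in MASLD and 11 in SD, or 22.9, 251 and 112 CPM. Top2a, which untangles replicated DNA, had 32, 183 and 24 UMIs, or 27.1, 251 and 245 CPM. For both, Aza-TdC was the lowest library, with log2 ratios over MASLD of -3.46 (-4.10 to -2.87) for Mki67 and -3.21 (-3.80 to -2.67) for Top2a. Mki67 UMIs were seen in 11 of 333 Aza-TdC nuclei, 65 of 244 MASLD nuclei and 6 of 33 SD nuclei.

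Kif23, a motor of the central spindle that bundles microtubules for cytokinesis, had 40 UMIs in Aza-TdC, 147 in MASLD and 19 in SD, or 33.9, 202 and 194 CPM. Kif15, a spindle motor, had 29, 163 and 8 UMIs, or 24.6, 224 and 81.8 CPM. Diaph3, a formin that nucleates actin, had 31, 188 and 22 UMIs, or 26.2, 258 and 225 CPM. Each of these was lowest in Aza-TdC, with log2 ratios over MASLD of -2.58 (-3.12 to -2.06) for Kif23, -3.19 (-3.81 to -2.61) for Kif15 and -3.30 (-3.90 to -2.74) for Diaph3. The other 17 measured mitosis members ran between -4.57 for Aspm, a spindle pole protein, and -2.73 for Anln, the contractile ring scaffold. Ccna2, with 2 UMIs in Aza-TdC, 9 in MASLD and 2 in SD, and Ccnb1, with 0, 13 and 1, fell short of 20 UMIs.

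All roles within mitosis were lower in Aza-TdC. Kinetochore and checkpoint genes (Knl1, Cenpe, Cenpf, Cenph, Cenpp, Bub1 and Bub1b) stood at a log2 ratio of Aza-TdC over MASLD of -3.47 (-3.83 to -3.13), spindle genes at -3.42 (-3.73 to -3.12), cytokinesis genes at -3.22 (-3.62 to -2.84) and the mitotic cyclins with Cdk1 at -3.55 (-4.74 to -2.54). These intervals overlap, and the differences between roles were not tested.

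**Figure D2:**
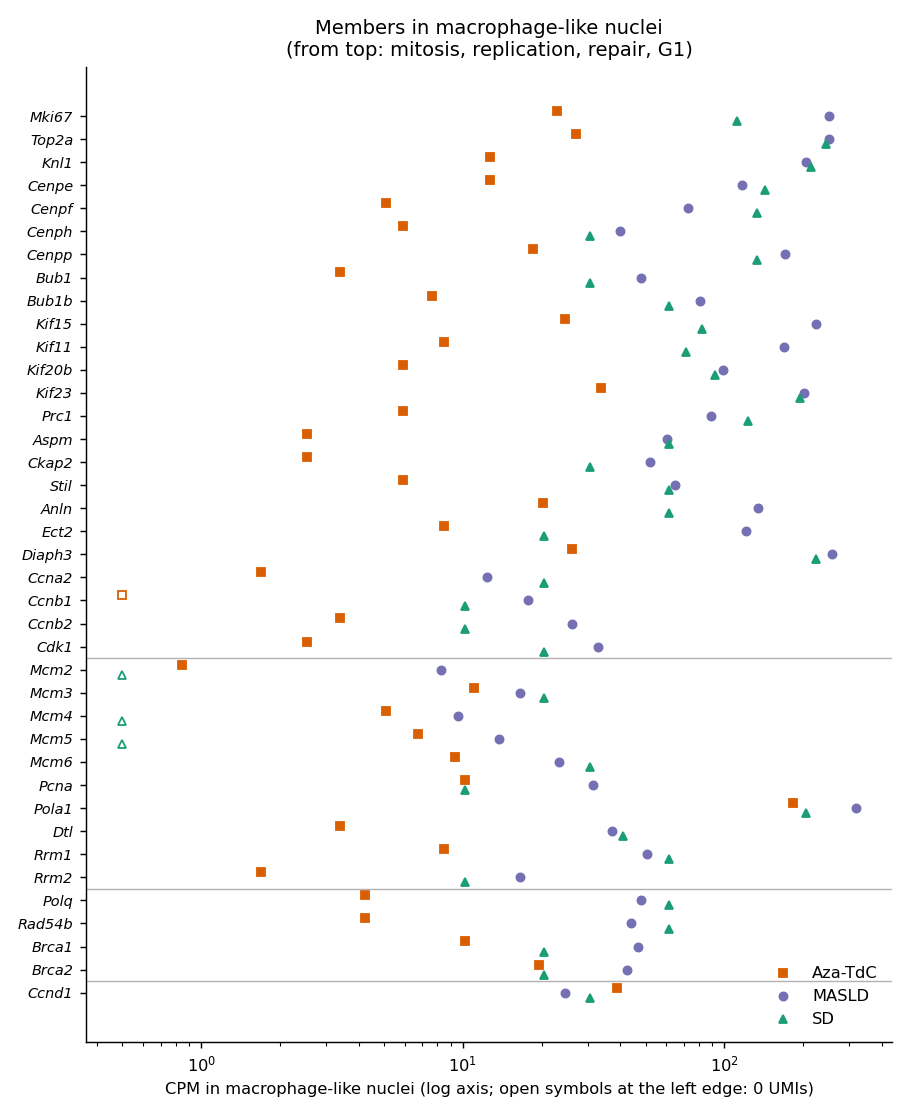
Level of each of the 39 members in macrophage-like nuclei, in CPM on a log axis, for the Aza-TdC, MASLD and SD libraries; horizontal lines part the mitosis, replication, repair and G1 genes, and open symbols mark 0 UMIs. The Aza-TdC symbols lie left of the MASLD symbols for every member except Ccnd1, which had 38.9 CPM in Aza-TdC and 24.7 CPM in MASLD.

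The replication set was lower by less. It summed to 240 CPM in Aza-TdC, 526 CPM in MASLD and 378 CPM in SD, a log2 ratio of Aza-TdC over MASLD of -1.13 (-1.36 to -0.91). Pola1, the catalytic subunit of DNA polymerase alpha, spans 327 kb and supplied most of these UMIs, with 216 in Aza-TdC, 232 in MASLD and 20 in SD, or 183, 318 and 205 CPM; its own ratio was -0.80 (-1.07 to -0.53). Without Pola1 the ratio of the set was -1.87 (-2.31 to -1.45). Dtl, which marks replication factors for destruction in S phase, had 4, 27 and 4 UMIs, and Rrm1, the large subunit of ribonucleotide reductase, had 10, 37 and 6; their ratios were -3.45 (-5.43 to -1.93) and -2.58 (-3.76 to -1.55). Mcm6 at -1.33 (-2.57 to -0.15) and the sliding clamp gene Pcna at -1.64 (-2.78 to -0.57) were also at least 2-fold lower, while Mcm3 had 13, 12 and 2 UMIs and a ratio of -0.58 (-1.83 to 0.68). Mcm2, Mcm4, Mcm5 and Rrm2 had too few UMIs to be measured.

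The repair genes were lower too. Polq, the end-joining polymerase, had 5 UMIs in Aza-TdC, 35 in MASLD and 6 in SD, and Rad54b, a recombination helicase, had 5, 32 and 6. The tumour suppressor genes Brca1, with 12, 34 and 2 UMIs, and Brca2, with 23, 31 and 2, had log2 ratios of Aza-TdC over MASLD of -2.20 (-3.28 to -1.21) and -1.13 (-1.97 to -0.30). Ccnd1, which acts before S phase, was not among the lower genes. It had 46 UMIs in Aza-TdC, 18 in MASLD and 3 in SD, or 38.9, 24.7 and 30.7 CPM, a ratio of 0.66 (-0.16 to 1.53).

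Nuclei with a UMI of any mitosis member made up 22.5% of the macrophage-like class in Aza-TdC, 42.2% in MASLD and 36.4% in SD. Nuclei with UMIs of 3 or more different mitosis members numbered 12 of 333 in Aza-TdC (3.6%, exact Clopper-Pearson 95% interval 1.88 to 6.21), 76 of 244 in MASLD (31.1%, 25.4 to 37.4) and 9 of 33 in SD (27.3%, 13.3 to 45.5). They held 73.8% of the mitosis UMIs of the class in Aza-TdC, 98.1% in MASLD and 98.1% in SD. With 8 or more members the counts were 5, 65 and 7. Since the UMIs sit together in so few nuclei, intervals on the summed UMIs are narrower than the spread between nuclei. Without the nuclei that held 3 or more members, the ratio of Aza-TdC over MASLD for the set was -0.30 (-0.87 to 0.29); leaving them out removes most mitosis UMIs by construction.

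The median macrophage-like nucleus held 2857 UMIs in Aza-TdC, 2290.5 in MASLD and 2623 in SD. After thinning each nucleus to 2000 UMIs, 8 of 229 Aza-TdC nuclei (3.49%), 62 of 141 MASLD nuclei (44%) and 7 of 28 SD nuclei (25%) held 3 or more, with 104, 103 and 5 shallower nuclei left out. Mesothelial-like nuclei were taken as a class with little division. Before thinning, 0 of 59 in Aza-TdC, 0 of 50 in MASLD and 0 of 29 in SD held 3 or more, which allows shares of up to 5.08%, 6% and 10.3%. After thinning, 0 of 36, 0 of 28 and 0 of 18 did. Their median depths were 2393, 2168 and 2179 UMIs. The unthinned Aza-TdC share in macrophage-like nuclei, 3.6%, is below the limit of 5.08%. Of those macrophage-like nuclei, 5 held 8 or more mitosis members (1.5% of the class), while no mesothelial-like nucleus in Aza-TdC held more than 1. With 59 mesothelial-like nuclei a share of up to 5.08% is allowed there too, so this cannot tell the classes apart. The median mitochondrial share of macrophage-like nuclei was 0.221% in Aza-TdC, 0.809% in MASLD and 0.294% in SD. With only nuclei at 1% or less kept, the mitosis ratio of Aza-TdC over MASLD was -3.64 (-3.82 to -3.46).

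**Figure D3:**
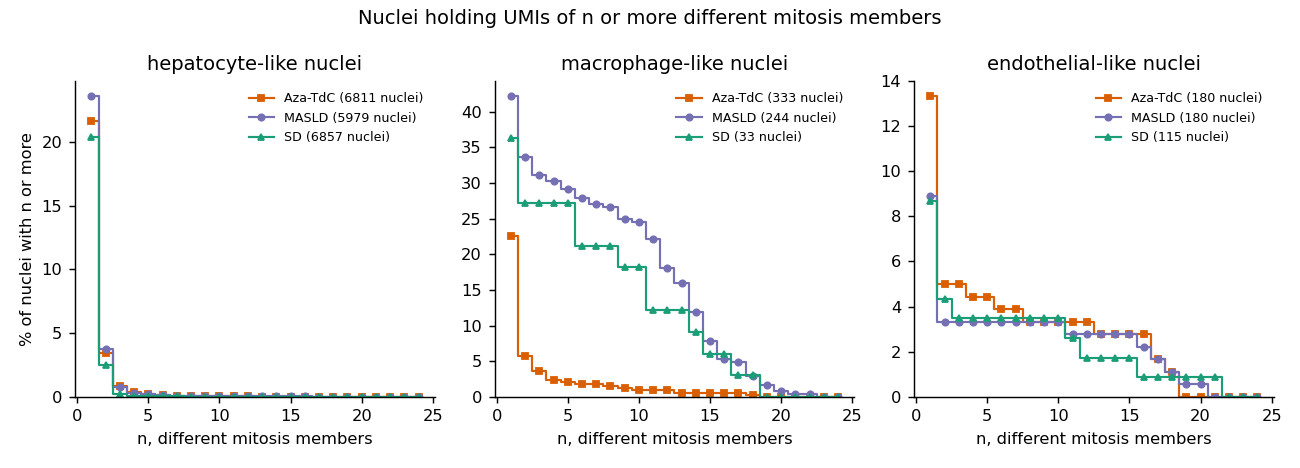
Share of nuclei, in percent, that hold UMIs of n or more different mitosis members, for n of 1 and upward, in hepatocyte-like (left), macrophage-like (middle) and endothelial-like nuclei (right) of the Aza-TdC, MASLD and SD libraries; the vertical scales differ. At 3 members the macrophage-like curves stand at 3.6% in Aza-TdC, 31.1% in MASLD and 27.3% in SD.

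The replication members had few UMIs per nucleus, so missed detection limits how far nuclei can be divided by both sets. In the macrophage-like class, nuclei with 3 or more members of each set numbered 4 in Aza-TdC, 23 in MASLD and 2 in SD, those with 3 or more mitosis members alone 8, 53 and 7, and those with 3 or more replication members alone 4, 2 and 1. After thinning to 2000 UMIs, 3 nuclei in Aza-TdC, 6 in MASLD and 2 in SD held 3 or more replication members. The nuclei with 3 or more mitosis members held 22.3% of the replication UMIs of the class in Aza-TdC, 77% in MASLD and 64.9% in SD.

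The 15 macrophage markers summed to 10006 CPM in the Aza-TdC nuclei with 3 or more mitosis members and 9878 CPM in the other Aza-TdC nuclei of the class. The sums were 7556 and 7567 CPM in MASLD, and 1916 and 6071 CPM in SD. Single markers differed in both directions: in MASLD the Kupffer cell gene Clec4f stood at 1858 CPM in such nuclei and 926 CPM in the others, and Lyz2, a lysozyme gene, at 197 and 1255 CPM. Clec4f stood at 2413 and 2988 CPM in Aza-TdC, and 907 and 2220 CPM in SD. At least 2 of the 15 macrophage markers were seen in 11 of 12 such nuclei in Aza-TdC, 67 of 76 in MASLD and 3 of 9 in SD. At least 2 of the 8 dendritic markers were seen in 1, 18 and 7 of them. Flt3, a receptor of dendritic cells, was found in 7 of the 9 SD nuclei, and Cd5l in 1.

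Finer clustering (Leiden resolution 2) separated macrophage-like from dendritic-like nuclei, and the shares were then 11 of 301 macrophage-like nuclei in Aza-TdC (3.65%, 1.84 to 6.44), 59 of 170 in MASLD (34.7%, 27.6 to 42.4) and 2 of 18 in SD (11.1%, 1.38 to 34.7). Dendritic-like nuclei with 3 or more mitosis members numbered 1 of 9 in Aza-TdC, 17 of 38 in MASLD and 7 of 13 in SD. The mitosis ratio of MASLD over SD in macrophage-like nuclei was then 1.96 (1.5 to 2.47), against 0.35 before, and without nuclei holding 2 or more dendritic markers it was 2.12 (1.66 to 2.61). The ratio of Aza-TdC over MASLD without those nuclei was -3.65 (-3.86 to -3.45). Erythroid markers also differed in the class, with at least 2 of 7 seen in 1 of 12 mitosis nuclei in Aza-TdC, 31 of 76 in MASLD and 0 of 9 in SD. Without nuclei holding 2 or more markers of any other non-hepatocyte class, the ratio of Aza-TdC over MASLD was -3.73 (-4.07 to -3.40).

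For MASLD over SD in macrophage-like nuclei as first clustered, 4 of 32 measured members were at least 2-fold higher, against 5.79% of all 7392 genes measured, and 0 were at least 2-fold lower, against 5.21%. The 4 were Mki67 at 1.16 (0.29 to 2.19), Kif15 at 1.45 (0.44 to 2.69), Kif11 at 1.24 (0.15 to 2.58) and Ect2, the exchange factor that starts cytokinesis, at 2.56 (0.67 to 5.63). Each rests on 2 to 11 UMIs in the 33 SD nuclei.

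Mitotic genes outside the 39 were lower in Aza-TdC as well. Of 50 other mitotic genes, 42 were measured for Aza-TdC over MASLD in macrophage-like nuclei. Of those, 41 were at least 2-fold lower (97.6%, against 8.82% of all genes), with a median of -3.22. Ndc80, which holds microtubules at the kinetochore, had 5 UMIs in Aza-TdC, 61 in MASLD and 7 in SD. Sgo2a, a guard of sister chromatid cohesion, had 3, 43 and 7 UMIs, and Racgap1 of the central spindle had 5, 56 and 9. The chromosome kinesin gene Kif4 had 6, 59 and 9 UMIs, and the spindle gene Nusap1 had 9, 76 and 13. In each of these Aza-TdC held the fewest UMIs although its class held the most nuclei. Of 36 other replication genes, 17 were measured and 9 were at least 2-fold lower (52.9%, against 8.82% of all genes), with a median of -1.43. Atad2, a chromatin ATPase, had 52, 151 and 5 UMIs and was also at least 2-fold higher in MASLD over SD, at 2.02 (0.76 to 3.66). In MASLD over SD, Spc25 of the kinetochore was the 1 gene past 2-fold among 39 other mitotic genes measured (2.56%, against 5.79% of all genes). It had 13 UMIs in Aza-TdC, 38 in MASLD and 0 in SD. The S phase genes Clspn, E2f8, E2f2 and E2f7 had ratios of -2.81, -2.96, -2.78 and -2.62 for Aza-TdC over MASLD.

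Genes that act before S phase and cell cycle inhibitors were mixed. Of 6 other G1 cyclins and kinases, 5 were measured and 0 were at least 2-fold different for Aza-TdC over MASLD. Of all genes there, 4.61% were higher and 8.82% lower. Ccnd3 was lower in MASLD over SD at -1.31 (-1.63 to -0.99), with 333 UMIs in MASLD and 111 in SD. Of 14 cell cycle inhibitors, 9 were measured, 2 were at least 2-fold higher (22.2%, against 4.61% of all genes) and 4 lower (44.4%, against 8.82%). Cdkn1a, which codes for the kinase inhibitor p21 and is a target of p53, had 174 UMIs in Aza-TdC, 16 in MASLD and 0 in SD, or 147, 22 and 0 CPM. Its log2 ratio of Aza-TdC over MASLD was 2.75 (2.01 to 3.58). Its UMIs were spread over 112 of the 321 Aza-TdC nuclei with fewer than 3 mitosis members, against 8 of 168 such nuclei in MASLD. Among nuclei with 3 or more mitosis members, Cdkn1a was seen in 4 of 12 in Aza-TdC and 6 of 76 in MASLD. Its level in Aza-TdC was similar in both kinds of nuclei, at 130 CPM with 3 or more members and 148 CPM with fewer. Ccng1, another p53 target, had 61, 18 and 2 UMIs and a ratio of 1.06 (0.29 to 1.91). The 4 lower inhibitors were Cdkn2c at -4.34 (-7.46 to -2.34), the retinoblastoma relative Rbl1 at -2.20 (-2.94 to -1.51), Cdkn1b at -1.17 (-1.80 to -0.55) and Btg2 at -1.52 (-2.62 to -0.48).

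In hepatocyte-like nuclei the members were sparse, and most were higher in MASLD than in SD. The mitosis set summed to 44.2 CPM in Aza-TdC, 53.9 CPM in MASLD and 42.6 CPM in SD. Its log2 ratio was 0.34 (0.25 to 0.43) for MASLD over SD and -0.29 (-0.37 to -0.20) for Aza-TdC over MASLD. The replication set summed to 90.7, 90.8 and 69.3 CPM, with ratios of 0.39 (0.32 to 0.46) for MASLD over SD and 0.00 (-0.07 to 0.06) for Aza-TdC over MASLD. Over SD, the Aza-TdC library stood at 0.05 for mitosis and 0.39 for replication.

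Among members in hepatocyte-like nuclei, 17 of 37 measured were at least 2-fold higher in MASLD over SD, against 12.9% of all 15753 genes measured, and 1 was at least 2-fold lower, against 4.87% (17.8% in either direction). The split depended on the processing: it was 12 higher and 3 lower under median-ratio scaling, 10 and 2 with cell cycle genes kept in clustering, and 10 and 1 after thinning to 2000 UMIs. Without the 44 MASLD and 13 SD nuclei that held 3 or more mitosis members, which removes members' UMIs by construction, it was 9 higher and 4 lower. The 8 members no longer at least 2-fold higher were then Cenpe, Cenpf, Cenph, Kif20b, Prc1, Anln, Cdk1 and Ccnd1, and the 4 lower ones were Aspm, Diaph3, Ccnb2 and Rrm2. The median log2 ratio was 0.80 over the members and 0.15 over all genes. For Aza-TdC over MASLD, 0 of 36 measured members were at least 2-fold higher, against 2.80% of all genes, and 2 were at least 2-fold lower, against 4.82% (7.62% in either direction). That share of 5.56% is near the background. The median was -0.14 over the members and -0.09 over all genes. Bub1 and Kif23 were not measured in either comparison, and Ccnb1 was not measured for Aza-TdC over MASLD.

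**Figure D4:**
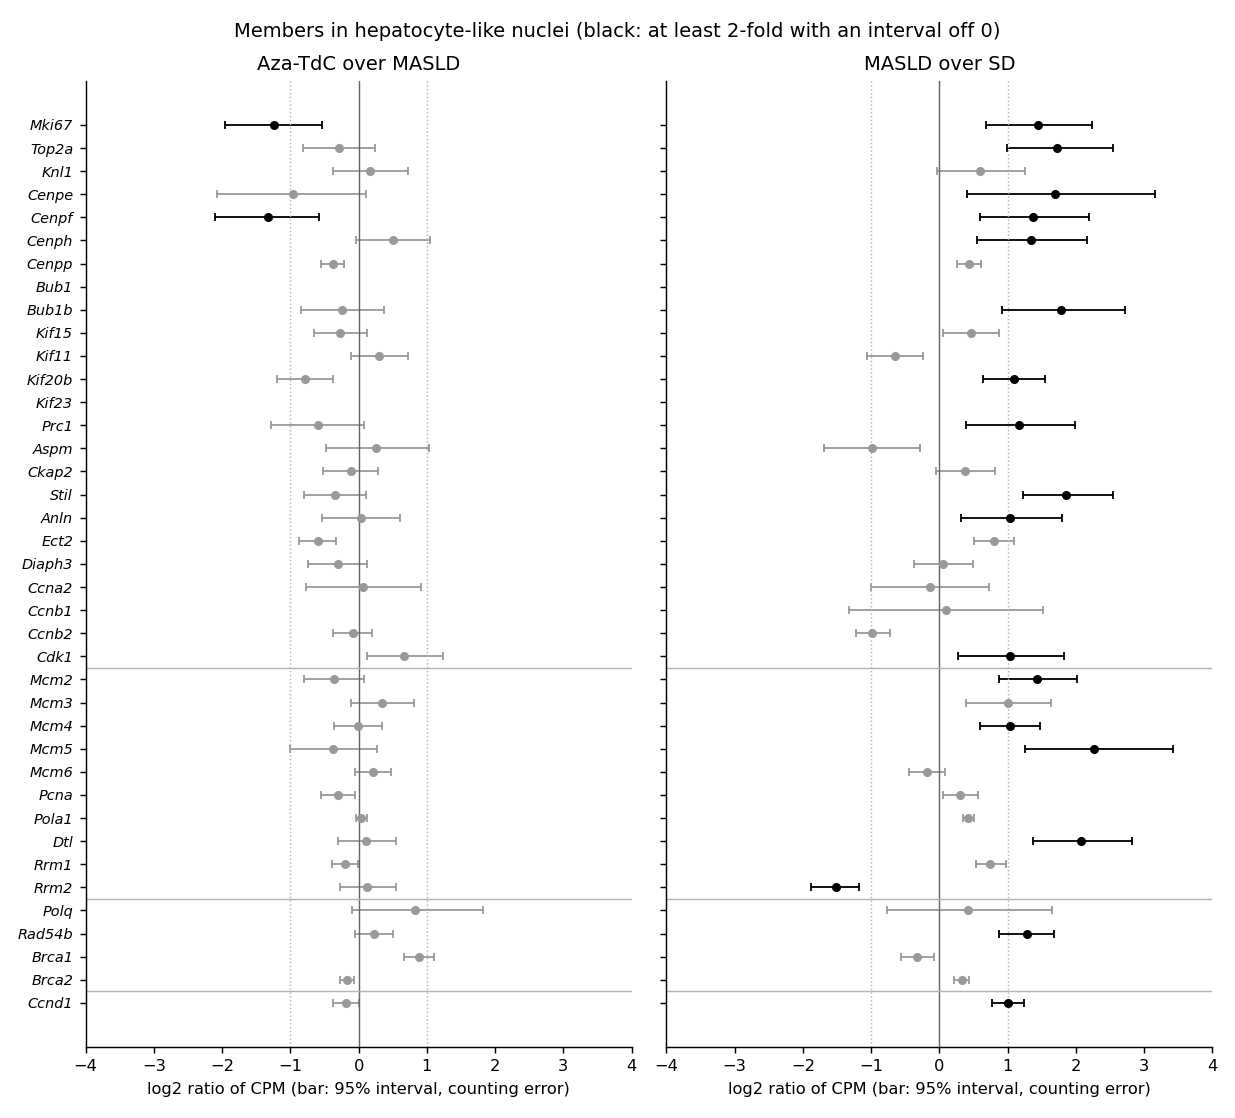
Log2 ratio of CPM of each measured member in hepatocyte-like nuclei for Aza-TdC over MASLD (left) and MASLD over SD (right), with exact conditional 95% intervals that cover counting error only; black marks at least 2-fold with an interval off 0. On the right 17 members are black above 1 and Rrm2 is black at -1.52; on the left Mki67 at -1.24 and Cenpf at -1.33 are black.

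Among chromosome genes, Mki67 had 27 UMIs in Aza-TdC, 53 in MASLD and 21 in SD, or 0.544, 1.28 and 0.474 CPM. Top2a had 61, 62 and 20 UMIs, or 1.23, 1.5 and 0.451 CPM. Mki67 was thus highest in MASLD, at 1.44 (0.68 to 2.24) over SD and with Aza-TdC at -1.24 (-1.96 to -0.54) over it. For Top2a the ratio was 1.73 (0.99 to 2.54) in MASLD over SD, and -0.29 (-0.82 to 0.24) in Aza-TdC over MASLD, where the interval held 0.

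Kinetochore genes were mostly higher in MASLD than in SD. Cenpf, which builds the outer kinetochore, had 23 UMIs in Aza-TdC, 48 in MASLD and 20 in SD, or 0.463, 1.16 and 0.451 CPM. Cenpe, the motor that moves chromosomes to the equator, had 13, 21 and 7 UMIs, or 0.262, 0.509 and 0.158 CPM. The Cenpf ratio of Aza-TdC over MASLD was -1.33 (-2.11 to -0.58), but without nuclei holding 3 or more mitosis members it was -0.20 (-1.11 to 0.71). Cenph, of the inner kinetochore, had 80, 47 and 20 UMIs, or 1.61, 1.14 and 0.451 CPM. Bub1b, the checkpoint kinase-like protein BubR1, had 49, 48 and 15 UMIs, or 0.987, 1.16 and 0.338 CPM. Over SD, MASLD stood at 1.37 (0.59 to 2.20) for Cenpf, 1.69 (0.40 to 3.16) for Cenpe, 1.34 (0.55 to 2.17) for Cenph and 1.78 (0.92 to 2.72) for Bub1b. Without nuclei holding 3 or more mitosis members these were 0.32 (-0.63 to 1.29) for Cenpf, 0.63 (-0.91 to 2.26) for Cenpe and 0.77 (-0.10 to 1.68) for Cenph, each with 0 in the interval, and 1.83 (0.94 to 2.81) for Bub1b. Cenpp, another inner kinetochore gene, supplied the most mitosis UMIs, with 568, 616 and 488, or 11.4, 14.9 and 11 CPM, and spans 189 kb; its ratios were 0.44 (0.26 to 0.61) for MASLD over SD and -0.38 (-0.55 to -0.22) for Aza-TdC over MASLD.

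Spindle genes went in different directions. Stil, needed to duplicate centrioles, had 83 UMIs in Aza-TdC, 88 in MASLD and 26 in SD, or 1.67, 2.13 and 0.587 CPM. Kif20b, a motor of late mitosis, had 87, 125 and 63 UMIs, or 1.75, 3.03 and 1.42 CPM. Prc1, which bundles microtubules between the separating chromosomes, had 35, 44 and 21 UMIs, or 0.705, 1.07 and 0.474 CPM. These were at least 2-fold higher in MASLD over SD, at 1.86 (1.22 to 2.55), 1.09 (0.64 to 1.55) and 1.17 (0.39 to 1.99), and Kif20b was lower in Aza-TdC over MASLD at -0.79 (-1.20 to -0.38). Without nuclei holding 3 or more mitosis members, Prc1 stood at 0.62 (-0.28 to 1.55) for MASLD over SD. Kif15 had 116, 116 and 90 UMIs, or 2.34, 2.81 and 2.03 CPM, and a smaller ratio of 0.47 (0.06 to 0.88) for MASLD over SD. Kif11, the motor that pushes spindle poles apart, had 121, 82 and 138 UMIs, or 2.44, 1.99 and 3.11 CPM. Aspm had 39, 27 and 57 UMIs, or 0.785, 0.654 and 1.29 CPM. Kif11 and Aspm were thus lower in MASLD than in SD, at -0.65 (-1.06 to -0.24) and -0.98 (-1.69 to -0.29). Their CPM in MASLD was also below that in Aza-TdC, but there the interval of neither gene excluded 0.

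Of the cytokinesis genes, Anln had 59 UMIs in Aza-TdC, 48 in MASLD and 25 in SD, or 1.19, 1.16 and 0.564 CPM. Ect2 had 206, 259 and 160 UMIs, or 4.15, 6.27 and 3.61 CPM. Ect2 was highest in MASLD, at 0.80 (0.51 to 1.09) over SD and with Aza-TdC at -0.60 (-0.87 to -0.33) over it, while Anln stood at 1.04 (0.32 to 1.80) for MASLD over SD and 0.03 (-0.54 to 0.61) for Aza-TdC over MASLD.

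The mitotic cyclins and their kinase did not move together. Ccnb2 had 232 UMIs in Aza-TdC, 205 in MASLD and 433 in SD, or 4.67, 4.96 and 9.77 CPM. Cdk1, the kinase that B-type cyclins activate, had 84, 44 and 23 UMIs, or 1.69, 1.07 and 0.519 CPM. Ccnb2 was lower in MASLD over SD, at -0.98 (-1.22 to -0.73), while Cdk1 was higher there, at 1.04 (0.28 to 1.83), and was also higher in Aza-TdC over MASLD, at 0.67 (0.12 to 1.23). Ccnb2 was seen in 219, 195 and 407 nuclei, and without nuclei holding 3 or more mitosis members its ratio of MASLD over SD was -1.03 (-1.29 to -0.78), while that of Cdk1 was 0.78 (-0.03 to 1.62), an interval that holds 0. In clusters of at least 50 nuclei, Ccnb2 ran from 0 to 5.97 CPM in Aza-TdC, 2.39 to 6.30 CPM in MASLD and 5.88 to 11.9 CPM in SD.

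Replication genes were mostly higher in MASLD over SD. Mcm5, a subunit of the replicative helicase, had 42 UMIs in Aza-TdC, 45 in MASLD and 10 in SD, or 0.846, 1.09 and 0.226 CPM. Mcm2 had 87, 93 and 37 UMIs, or 1.75, 2.25 and 0.835 CPM. Dtl had 112, 86 and 22 UMIs, or 2.26, 2.08 and 0.496 CPM. In each, SD was the lowest library, with ratios of MASLD over SD of 2.27 (1.26 to 3.43), 1.43 (0.87 to 2.02) and 2.07 (1.38 to 2.82). Mcm4 had 153, 128 and 67 UMIs, or 3.08, 3.1 and 1.51 CPM, and a ratio of 1.04 (0.60 to 1.48). Mcm3 had 102, 67 and 36 UMIs, or 2.05, 1.62 and 0.812 CPM, and fell just short of 2-fold at 1.00 (0.39 to 1.63).

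The larger sums moved less. Pola1 had 2856 UMIs in Aza-TdC, 2307 in MASLD and 1845 in SD, or 57.5, 55.9 and 41.6 CPM. Rrm1 had 480, 458 and 292 UMIs, or 9.67, 11.1 and 6.59 CPM, and Pcna had 266, 272 and 235, or 5.36, 6.59 and 5.30 CPM. For MASLD over SD these gave 0.42 (0.34 to 0.51), 0.75 (0.54 to 0.97) and 0.31 (0.06 to 0.57); for Aza-TdC over MASLD, Rrm1 stood at -0.20 (-0.39 to -0.01) and Pcna at -0.30 (-0.55 to -0.05). Rrm2, the small subunit whose level limits ribonucleotide reductase in S phase, ran the other way from Rrm1. It had 118, 90 and 278 UMIs, or 2.38, 2.18 and 6.27 CPM, and a ratio of MASLD over SD of -1.52 (-1.88 to -1.18). In clusters of at least 50 nuclei Rrm2 lay between 4.90 and 6.79 CPM in SD and between 1.42 and 3.58 CPM in MASLD; in Aza-TdC it lay between 0 and 7.27 CPM, the highest resting on 5 UMIs in 71 nuclei.

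Of the repair genes, Rad54b had 247 UMIs in Aza-TdC, 176 in MASLD and 78 in SD, or 4.97, 4.26 and 1.76 CPM. Brca2 had 1676, 1566 and 1341 UMIs, or 33.7, 37.9 and 30.3 CPM. Both were higher in MASLD over SD, at 1.28 (0.88 to 1.68) and 0.33 (0.22 to 0.43), and Brca2 stood at -0.17 (-0.27 to -0.07) for Aza-TdC over MASLD. Brca1 differed from these, with 570, 258 and 345 UMIs, or 11.5, 6.25 and 7.78 CPM. It was lowest in MASLD, at -0.32 (-0.56 to -0.08) over SD, and Aza-TdC stood above MASLD by 0.88 (0.66 to 1.10). Ccnd1 had 464, 438 and 234 UMIs, or 9.34, 10.6 and 5.28 CPM, and a ratio of 1.01 (0.77 to 1.24) for MASLD over SD. In the remaining measured members, Knl1, Ckap2, Diaph3, Ccna2, Ccnb1, Mcm6 and Polq, the interval held 0 in each comparison in which the gene was measured.

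Hepatocyte-like nuclei with 3 or more mitosis members were rare: 56 of 6811 in Aza-TdC (0.822%, 0.622 to 1.07), 44 of 5979 in MASLD (0.736%, 0.535 to 0.987) and 13 of 6857 in SD (0.19%, 0.101 to 0.324). Those with 3 or more replication members numbered 112, 84 and 27, of which 26, 16 and 1 held 3 or more of each set. The median depth of the class was 6748, 6411 and 5946 UMIs. At 2000 UMIs per nucleus the counts for mitosis were 6 of 6707 in Aza-TdC, 8 of 5874 in MASLD and 2 of 6710 in SD, with 104, 105 and 147 nuclei left out, and for replication 10, 8 and 1. At this thinned depth the counts are too low to order the libraries. The nuclei with 3 or more mitosis members held 17.2% of the mitosis UMIs of the class in Aza-TdC, 19.2% in MASLD and 4.76% in SD. Without them the mitosis ratio of MASLD over SD was 0.11 (0.02 to 0.21), which is not above the median of 0.15 over all genes in the whole class. Leaving them out removes mitosis UMIs by construction. Nuclei with 8 or more mitosis members numbered 4, 5 and 1 and held 4.92%, 11.6% and 1.48% of the mitosis UMIs of the class. Of the nuclei with 3 or more, 0 of the 56, 4 of the 44 and 0 of the 13 held at least 2 macrophage markers. Among the other hepatocyte-like nuclei the shares were 2.12%, 2.91% and 0.0292%. At least 2 of 12 stellate markers were seen in 0 of the 56, 4 of the 44 and 1 of the 13, against 0.577%, 1.31% and 1.49%. At least 2 of 7 erythroid markers, largely haemoglobin genes, were seen in 7, 22 and 0 of them, against 5.08%, 45.6% and 1.96% of the other hepatocyte-like nuclei. Over the class these markers summed to 60 CPM in the other nuclei of Aza-TdC, 365 CPM in MASLD and 38.4 CPM in SD. Their part in the ratios was not tested apart from other markers. Without nuclei holding 2 or more markers of another class, the mitosis ratio was 0.42 (0.32 to 0.53) for MASLD over SD and -0.40 (-0.51 to -0.29) for Aza-TdC over MASLD. The replication ratios were then 0.39 (0.30 to 0.47) and -0.02 (-0.10 to 0.06).

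The hepatocyte-like class was made of different clusters in each library: clusters 6 and 11 held most Aza-TdC nuclei, clusters 13 and 14 most MASLD nuclei, and clusters 0, 1 and 2 most SD nuclei, so library and cluster cannot be told apart between SD and the other libraries. No cluster held at least 50 nuclei of both SD and another library. In clusters of at least 50 nuclei the mitosis set ran from 36.4 to 59.6 CPM in Aza-TdC, 45.0 to 55.8 CPM in MASLD and 38.7 to 44.5 CPM in SD. The replication set ran from 39.8 to 138 CPM, from 72.9 to 110 CPM, and from 53.4 to 76.3 CPM. The mitosis ranges of MASLD and SD lie next to each other, the nearest cluster values being 45.0 and 44.5 CPM. The intervals of these clusters overlap, at 36.4 to 55 CPM in MASLD cluster 12 and 41.6 to 47.5 CPM in SD cluster 1. The mitosis range of Aza-TdC overlaps both, and the replication ranges overlap between all libraries. Clusters 12, 13 and 16 held at least 50 nuclei of both Aza-TdC and MASLD, and their replication levels did not all run one way. In cluster 12 replication stood at 39.8 CPM (31.1 to 50.2) in 216 Aza-TdC nuclei and 72.9 CPM (61.9 to 85.4) in 295 MASLD nuclei. In cluster 16 it stood at 138 CPM (112 to 169) in 71 Aza-TdC nuclei and 76.4 CPM (58.9 to 97.6) in 82 MASLD nuclei, the opposite order. In cluster 13 it stood at 92.5 CPM (62.8 to 131) in 61 Aza-TdC nuclei and 110 CPM (105 to 115) in 2545 MASLD nuclei, with intervals that overlap. The mitosis intervals of Aza-TdC and MASLD overlap in all 3 clusters. Cluster 14, with 3023 MASLD nuclei, had the T cell gene Themis among its 10 leading genes; without it the replication ratio was 0.58 (0.50 to 0.66) for MASLD over SD and -0.20 (-0.27 to -0.12) for Aza-TdC over MASLD.

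**Figure D5:**
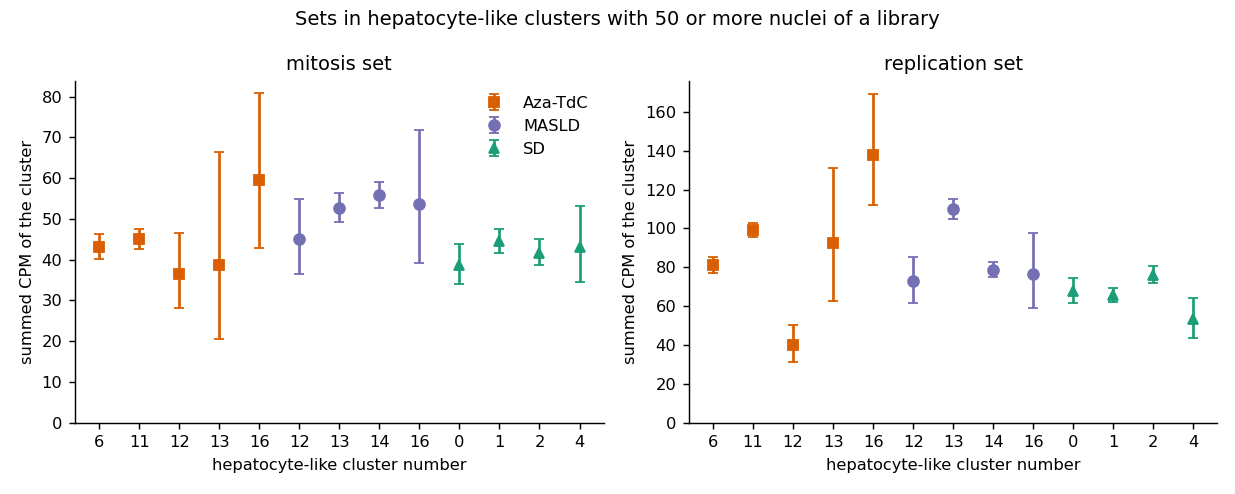
Summed level of the mitosis set (left) and the replication set (right), in CPM with exact Poisson 95% intervals, in each hepatocyte-like cluster with at least 50 nuclei of a library, for the Aza-TdC, MASLD and SD libraries. In replication the Aza-TdC clusters run from 39.8 to 138 CPM, the MASLD clusters lie at 72.9, 76.4, 78.8 and 110 CPM, and all 4 SD clusters lie between 53.4 and 76.3 CPM.

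Other cell cycle genes in hepatocyte-like nuclei were mixed. Of 50 other mitotic genes, 33 were measured for MASLD over SD, 11 were at least 2-fold higher (33.3%, against 12.9% of all genes) and 0 lower (against 4.87%), with a median of 0.73. The kinetochore gene Spc25 had 1082 UMIs in Aza-TdC, 1020 in MASLD and 228 in SD, and the checkpoint gene Mad2l1 had 77, 106 and 39. Their ratios of MASLD over SD were 2.26 (2.06 to 2.48) and 1.54 (1.00 to 2.11); Incenp at 1.31 (0.81 to 1.83) and Ncapg2 at 1.27 (0.61 to 1.97) followed. Of these genes 35 were measured for Aza-TdC over MASLD. In that comparison 1 was at least 2-fold higher (2.86%, level with the 2.80% of all genes), Kif4 at 1.06 (0.24 to 1.93). Another 3 were at least 2-fold lower (8.57%, against 4.82% of all genes). These were the mitotic kinase gene Aurka, with 11, 55 and 29 UMIs and a ratio of -2.59 (-3.67 to -1.64), Hmmr at -1.85 (-3.33 to -0.56) and Ube2c at -1.93 (-3.54 to -0.55).

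Of 36 other replication genes, 35 were measured for MASLD over SD, 3 were at least 2-fold higher (8.57%) and 2 lower (5.71%), shares near or below the 12.9% and 4.87% of all genes, with a median of 0.14 that is level with the 0.15 of all genes. The 2 atypical E2F repressors diverged. E2f8 had 325 UMIs in Aza-TdC, 703 in MASLD and 142 in SD, with ratios of 2.41 (2.15 to 2.68) for MASLD over SD and -1.38 (-1.57 to -1.19) for Aza-TdC over MASLD. E2f7 had 39, 7 and 59 UMIs, with ratios of -2.97 (-4.35 to -1.84) and 2.21 (1.03 to 3.62). Tk1, thymidine kinase of the salvage pathway, had 2031, 658 and 1603 UMIs, with ratios of -1.18 (-1.32 to -1.05) and 1.36 (1.23 to 1.49). Orc1 at 1.41 (0.65 to 2.22) and Chaf1a at 1.06 (0.64 to 1.5) were higher in MASLD over SD.

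Among G1 genes, Myc had 160 UMIs in Aza-TdC, 143 in MASLD and 43 in SD, and Ccnd3 had 7268, 5203 and 12618. Myc was higher in MASLD over SD at 1.84 (1.34 to 2.36) and Ccnd3 lower at -1.18 (-1.22 to -1.13), the opposite of Ccnd1. Of 14 inhibitors, 12 were measured for MASLD over SD, 5 were at least 2-fold higher (41.7%, against 12.9% of all genes) and 0 lower. Gadd45a had 239, 289 and 64 UMIs, a ratio of 2.28 (1.88 to 2.69), and Cdkn1a 473, 438 and 110, a ratio of 2.10 (1.79 to 2.41). Cdkn2c at 1.78 (1.18 to 2.41), Btg2 at 1.34 (1.04 to 1.66) and Cdkn2d at 1.15 (0.52 to 1.80) were the others. None of the inhibitors was at least 2-fold different for Aza-TdC over MASLD (0 of 13 measured, against 7.62% of all genes). Cdkn1a stood at -0.16 (-0.35 to 0.04), unlike in macrophage-like nuclei, and the difference between the classes was not tested.

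In endothelial-like nuclei the mitosis set summed to 649 CPM in Aza-TdC, 502 CPM in MASLD and 615 CPM in SD, and the direction of its ratios depended on the filters. The log2 ratio was -0.29 (-0.57 to -0.01) for MASLD over SD and 0.37 (0.11 to 0.63) for Aza-TdC over MASLD. With only nuclei at 1% mitochondrial UMIs or less, both turned round, to 0.92 (0.63 to 1.21) and -0.73 (-1 to -0.46); the median mitochondrial share of the class was 0.486% in Aza-TdC, 1.96% in MASLD and 0.341% in SD. At 2000 UMIs per nucleus the ratio of MASLD over SD was 0.39 (-0.01 to 0.79), with 120, 108 and 51 nuclei left out. Nearly all of the UMIs came from a few nuclei: 9 of 180 in Aza-TdC (5%, 2.31 to 9.28), 6 of 180 in MASLD (3.33%, 1.23 to 7.11) and 4 of 115 in SD (3.48%, 0.956 to 8.67) held 3 or more mitosis members and 93.1%, 94.8% and 95.3% of the mitosis UMIs. These intervals overlap.

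The members with the most UMIs in endothelial-like nuclei were Pola1, with 36 in Aza-TdC, 20 in MASLD and 17 in SD, Top2a with 24, 21 and 24, and Diaph3 with 32, 19 and 17. Cenpp had 24, 25 and 8, and Ckap2, a spindle protein, 19, 9 and 16. Knl1, with 14, 15 and 13, and Kif20b, with 13, 15 and 14, followed at the same sum of 42. Over SD, 13 members were measured in MASLD and 1 was at least 2-fold higher, Ccnd1 at 1.74 (0.16 to 3.74), against 9.08% of all genes; 2 were at least 2-fold lower, Cenpe and Ckap2, against 4.86%. For Aza-TdC over MASLD, 15 were measured, 3 were at least 2-fold higher (Kif15, Ckap2 and Pola1), against 3.97%, and 1 was at least 2-fold lower, Mki67 at -1.97 (-3.99 to -0.37), against 4.81%. Citron kinase, Cit, and Atad2 were the other listed genes past 2-fold, each lower in MASLD over SD, at -1.59 (-2.44 to -0.78) and -1.38 (-2.40 to -0.41), and higher in Aza-TdC over MASLD, at 2.11 (1.38 to 2.90) and 1.54 (0.65 to 2.51). Few listed genes could be measured. For MASLD over SD these were 6 other mitotic and 2 other replication genes, with 4.86% of all genes lower. For Aza-TdC over MASLD they were 8 and 3, with 3.97% of all genes higher.

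In smaller classes, nuclei with 3 or more mitosis members numbered 9 of 29 T and NK-like nuclei in Aza-TdC (31%, 15.3 to 50.8), 4 of 26 in MASLD (15.4%, 4.36 to 34.9) and 5 of 23 in SD (21.7%, 7.46 to 43.7). Among stellate-like nuclei they numbered 0 of 87 in Aza-TdC, which allows a share of up to 3.45%, 7 of 112 in MASLD (6.25%, 2.55 to 12.5) and 0 of 77 in SD, which allows up to 3.9%. The stellate-like mitosis set stood at 96.2 CPM in Aza-TdC, 512 CPM in MASLD and 46.5 CPM in SD. The T and NK-like set ran in another order, at 3793 CPM in Aza-TdC, 1829 CPM in MASLD and 1405 CPM in SD; differences between classes were not tested.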

How the data were processed

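Per the labels' protocols, nuclei from 120 mg of frozen tissue per library were sorted and run on the 10x Genomics 3' kit. Deposited were raw UMI counts for each gene and barcode; per the file headers, the tool was Cell Ranger 6.1.2. The submitters' processing notes name Seurat 4.4.0, mm10 and GRCm38 and give them no role. Whether intron reads were counted, or free RNA and doublets removed, was not stated.

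Kept were nuclei with 500 UMIs and 300 genes or more and a mitochondrial share of 5% or less: 7591 in Aza-TdC, 6726 in MASLD and 7139 in SD. No doublet caller was run; leaving out nuclei above the 95th percentile of UMIs, and nuclei with markers of another class, stood in for it. The 3 libraries were clustered together in scanpy 1.11.5 (3000 variable genes, 30 principal components, 15 neighbours, Leiden resolution 1) into 17 clusters, with members, listed cell cycle genes and mitochondrial genes left out of the variable genes. Clusters were named from markers of 11 classes, hepatocyte being the default. For hepatocytes, haemoglobin transcripts were passed over and 1 leading marker of another class was tolerated, a rule set after cluster 14 had been seen. Cluster 15, shallow and with no marker of its own among its leading genes, stayed unnamed, with 80 Aza-TdC and 120 MASLD nuclei.

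Counts were summed per class and library and scaled to CPM. Intervals are at 95%: conditional binomial for log2 ratios, Poisson for levels and Clopper-Pearson for shares, all exact and all for counting error only. A share of 0 is given the limit that 3 counts allow. The annotation placed Anln, Rad54b and Brca2 over another gene on the same strand, so some of their reads may belong to it. The statistics were tested on simulated data. Members, gene lists and tests were chosen with earlier results of these data known. Named are, in hepatocyte-like nuclei, each measured member with an interval off 0; in the other classes the 6 members with the most UMIs; and from each list up to 5 genes in each direction, by the interval bound nearest 0. A gene that this rule selects is not reported here. Other genes were named after their values were seen. Of 18 alternatives, 15 were planned and 3 added after seeing the data.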

Additional observations from a re-analysis of the deposited data

Results flagged for a closer look

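Several ratios ran in opposite directions in different classes, each with an interval off 0 as first computed; the differences between classes were not tested, and each class has 1 library per group. For MASLD over SD, the mitosis set was at 0.34 in hepatocyte-like and 0.35 in macrophage-like nuclei, against -0.29 in endothelial-like nuclei. The endothelial-like value changed direction under 3 alternatives: 0.92 at 1% mitochondrial UMIs, 0.60 without mixed nuclei and 0.39 after thinning. Cenpe was at 1.69 in hepatocyte-like and -1.59 in endothelial-like nuclei, and Kif11 at 1.24 in macrophage-like and -0.65 in hepatocyte-like nuclei.

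For Aza-TdC over MASLD, the mitosis set was at -3.38 in macrophage-like and -0.29 in hepatocyte-like nuclei, against 0.37 in endothelial-like nuclei, which turned to -0.73 at 1% mitochondrial UMIs. The replication set was at -1.13 in macrophage-like and 0.62 in endothelial-like nuclei. The interval of that endothelial-like value held 0 at 1% mitochondrial UMIs (0.39, -0.34 to 1.18), at a minimum of 2000 UMIs (0.21, -0.47 to 0.89), without Pola1 (0.25, -0.52 to 1.02) and without mixed nuclei (0.31, -0.47 to 1.14). It also held 0 without nuclei with 3 or more mitosis members (0.36, -0.24 to 0.96) and after thinning (0.70, -0.27 to 1.69). Between macrophage-like and endothelial-like nuclei, Kif15 stood at -3.19 and 1.39, Ckap2 at -4.36 and 1.28, Diaph3 at -3.30 and 0.95, and Pola1 at -0.80 and 1.05. Between macrophage-like and hepatocyte-like nuclei, Cdk1 stood at -3.70 and 0.67 and Brca1 at -2.20 and 0.88. The endothelial-like mitosis values rest largely on 9 Aza-TdC, 6 MASLD and 4 SD nuclei with 3 or more mitosis members. Those nuclei held 23.9%, 6% and 25% of the replication UMIs of the class, so the replication values rest mostly on other nuclei.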

How the results depend on the processing

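Under 18 alternatives, 221 values were recomputed for 17 results. Of these, 169 stayed within their interval or, for counts, within 1.5 times, 48 moved and 4 reversed. Where no reason is given, the cause was not tested. The 169 include endothelial-like replication for MASLD over SD, at -0.11 (-0.76 to 0.55) as first computed. It was positive under 4 alternatives, each time within that interval. The 4 values counted as reversed were in endothelial-like mitosis. For MASLD over SD, it was 0.92 at 1% mitochondrial UMIs, 0.60 without mixed nuclei and 0.39 after thinning; for Aza-TdC over MASLD, it was -0.73 at 1%. That second ratio moved to 0.82 without nuclei with 3 or more mitosis members, and hepatocyte RNA subtraction moved endothelial-like replication to -1.14 for MASLD over SD and 1.78 for Aza-TdC over MASLD.

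Macrophage-like mitosis for Aza-TdC over MASLD was negative throughout: -3.64 at 1% mitochondrial UMIs, -3.73 without mixed nuclei, -3.65 without dendritic-marked nuclei and -0.30 without nuclei with 3 or more mitosis members, which removes most of the UMIs by construction. For MASLD over SD it was positive throughout: 0.57 at 1%, 0.71 at a minimum of 2000 UMIs, 1.96 at resolution 2 and 1.74 with classes from own markers. It was 1.12 after thinning and 2.12 without dendritic-marked nuclei. Without nuclei with 3 or more members it was 0.62, with an interval of -0.85 to 2.57 that holds 0. Without mixed nuclei it was 3.09 (2.20 to 4.16). The share of nuclei with 3 or more members was then 7.69% (0.195 to 36) in SD and 2.26% (0.619 to 5.68) in Aza-TdC, so few nuclei carry the ratios without mixed nuclei. Replication for Aza-TdC over MASLD moved to -1.5 at 1%, -1.87 without Pola1, -0.11 without nuclei with 3 or more mitosis members and -1.37 without dendritic-marked nuclei; for MASLD over SD it moved to 1.09 at resolution 2, 1.27 without mixed nuclei and 1.17 without dendritic-marked nuclei. The share of macrophage-like nuclei with 3 or more mitosis members moved to 1.5% in Aza-TdC with 8 or more members; in MASLD to 46.2% at 1%, 44.8% at a minimum of 2000 UMIs, 44% after thinning and 19.1% without mixed nuclei; and in SD to 11.1% at resolution 2 and with own markers, 7.69% without mixed nuclei and 8.7% without dendritic-marked nuclei.

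Hepatocyte-like mitosis for MASLD over SD moved to 0.17 with cell cycle genes kept in clustering, 0.19 under median-ratio scaling and 0.11 without nuclei with 3 or more members. For Aza-TdC over MASLD it moved to -0.17, -0.19, -0.40 without mixed nuclei and -0.39 after thinning. Replication for MASLD over SD moved to 0.24 under median-ratio scaling, 0.49 after thinning and 0.58 without cluster 14; for Aza-TdC over MASLD, to 0.09 under that scaling, -0.08 without Pola1, -0.09 after thinning and -0.20 without cluster 14. Members at least 2-fold different for MASLD over SD numbered 18 (17 higher, 1 lower). They numbered 15 under median-ratio scaling (12 and 3), 13 without nuclei with 3 or more members (9 and 4), 12 with cell cycle genes kept in clustering (10 and 2) and 11 after thinning (10 and 1); for Aza-TdC over MASLD they numbered 2, then 1 with cell cycle genes kept in clustering and 0 without nuclei with 3 or more members. No paired analysis was possible because each group is 1 library; leaving out a replicate was not possible for the same reason. Counts of a few UMIs per gene in the 33 SD macrophage-like nuclei limit every ratio over SD in that class.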
